A study of Mus musculus with 15 samples.

Results

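The cytosolic ribosomal protein genes encode the proteins of the small and large subunits of the ribosome that translates nuclear mRNA. They were taken here as the protein-coding genes whose GENCODE mouse symbol starts with Rpl or Rps and a digit, or is Rpsa, Rplp0, Rplp1 or Rplp2. Of 367 matching symbols, 10 kinase genes (Rps6k) and 271 pseudogenes were left out, which left 86 of the 48795 counted genes on 19 chromosomes. By symbol, 34 belong to the small and 52 to the large subunit. In the text, 77 of them are called core genes, and 9 are called related genes because they encode a paralogue, a retrogene copy or a protein that binds a ribosomal protein. Their mRNA was measured by polyA RNA sequencing in the ears of female mice, 5 weeks old, in a model in which phorbol 12-myristate 13-acetate (PMA) inflames the ear. The 5 Control libraries are labelled control, the 4 PMA_ethanol libraries name PMA and ethanol, and the 6 PMA_1002 libraries name PMA and the innate defense regulator peptide 1002, whose effect on sterile inflammation the study addressed. The PMA_1002 label does not name ethanol, so that peptide and vehicle cannot be told apart. The Control label names no vehicle either, so that PMA and ethanol cannot be told apart in PMA_ethanol against Control. The sources used here give no strain, dose or time. They also do not say whether libraries of a group are different animals. The p-values rest on the spread among libraries, which may not be the spread among animals.

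Ribosomal protein mRNAs are among the most abundant of a cell, and the proteins are needed in equal numbers because a ribosome holds a single copy of nearly every one. Their mRNAs begin with a run of pyrimidines, the terminal oligopyrimidine (TOP) tract, through which the kinase mTORC1 and the binding protein Larp1 control translation. Production is therefore known to be set largely at translation and assembly, which mRNA counts do not show. In skin the genes are transcribed in every cell type, so whole tissue gives a sum over keratinocytes, fibroblasts, muscle and immune cells.

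The transcript starts of 4 core genes and the paralogues that share their names are shown first, because the comparisons below turn on such pairs. Each line gives 30 bases of RefSeq sequence on GRCm38.p6, 5′ to 3′ on the gene's strand, 10 before and 20 from the annotated start, with the longest run of C and T in capitals.
Rps27: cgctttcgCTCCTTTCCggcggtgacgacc
Rps27l: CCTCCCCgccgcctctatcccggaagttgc
Rpl22: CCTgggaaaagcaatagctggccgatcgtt
Rpl22l1: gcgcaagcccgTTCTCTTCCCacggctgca
Rpl36a: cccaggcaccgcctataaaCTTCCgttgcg
Rpl36al: ccgtcgctcaggttcagttccgaCTTCCgc
Rpl39: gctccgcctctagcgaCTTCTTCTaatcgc
Rpl39l: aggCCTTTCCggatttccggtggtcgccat
These windows lie at chr3:90213629-90213658 (minus strand), chr9:66946076-66946105 (plus), chr4:152325716-152325745 (plus), chr3:28805498-28805527 (plus), chrX:134585644-134585673 (plus), chr12:69184048-69184077 (minus), chrX:37085203-37085232 (minus) and chr16:10170218-10170247 (plus).

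The starts of 5 other genes that were called between groups are given for comparison with the pairs.
Rpl7l1: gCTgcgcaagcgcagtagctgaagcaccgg
Rps19bp1: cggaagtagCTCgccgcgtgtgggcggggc
Rpl13a: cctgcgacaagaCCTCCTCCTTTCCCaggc
Rplp0: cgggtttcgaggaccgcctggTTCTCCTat
Rpl31: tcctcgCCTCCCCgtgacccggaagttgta
They lie at chr17:46782637-46782666 (minus strand), chr15:80264287-80264316 (minus), chr7:45128726-45128755 (minus), chr5:115559457-115559486 (plus) and chr1:39367841-39367870 (plus). Of the 86 genes, 66 had an entry, and 22 of these (33.3%) held an unbroken run of at least 8 bases that were each C or T on the strand shown, against 1805 of 16423 protein-coding genes (11%). The longest run had a median length of 6 bases in the ribosomal protein genes and 4 in all. Rpl13a, which rose in PMA_ethanol against Control, had a run of 14 bases, while Rpl7l1 and Rps19bp1, which rose more, had runs of 2 and 3. The annotated start can differ from the one used in the ear, and a run in the window says nothing about translation.

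Between 2656680 (PMA_ethanol library 3) and 28585995 (PMA_1002 library 5) reads per library fell in genes, and between 81112 and 914191 in ribosomal protein genes. Levels below are CPM, counts brought to a common library size with the trimmed mean of M-values (TMM), and ± gives the SD over the 5 Control, 4 PMA_ethanol or 6 PMA_1002 libraries. Keratinocyte, fibroblast and skeletal muscle markers were present in every library, as in whole ear. Neutrophil markers summed to between 22.6 and 31.6 CPM in Control, 528 and 899 in PMA_ethanol and 144 and 234 in PMA_1002, with 6, 9 and 8 of the 9 markers read. Monocyte and macrophage markers summed to between 414 and 527, 838 and 1090, and 605 and 732 CPM in the same order, and suprabasal keratinocyte markers to between 13128 and 18209, 6686 and 8993, and 14807 and 17194. These cell types moved with the groups, and their part in the results was not tested. Hair follicle markers summed to over 400 CPM in 6 libraries (Control 3 and 5, PMA_ethanol 1 and 2, PMA_1002 1 and 4), and counts are also given without those.

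Taken as one pool, the ribosomal protein genes held a smaller share of the reads in PMA_ethanol than in Control. They took 3.62, 3.89, 3.57, 3.63 and 3.65% of the reads in genes in Control libraries 1 to 5, a mean of 3.67% ± 0.125 (SD, n = 5). In PMA_ethanol the shares were 2.79, 3.14, 3.05 and 2.96%, with a mean of 2.99% ± 0.148 (SD, n = 4), and in PMA_1002 they ran from 3.20 to 3.37% with a mean of 3.27% ± 0.0595 (SD, n = 6). The 3 groups did not overlap, and PMA_1002 lay between the others. The order of the group means was the same as a share of all reads in the table and without the 10 most abundant genes. A share depends on everything else that is transcribed: after TMM scaling the summed levels were 34036 ± 1114, 32491 ± 902 and 32906 ± 515 CPM in Control, PMA_ethanol and PMA_1002, and all 3 ranges overlapped. In whole tissue, fewer cells that transcribe these genes and less RNA per cell cannot be told apart.

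**Figure D1:**
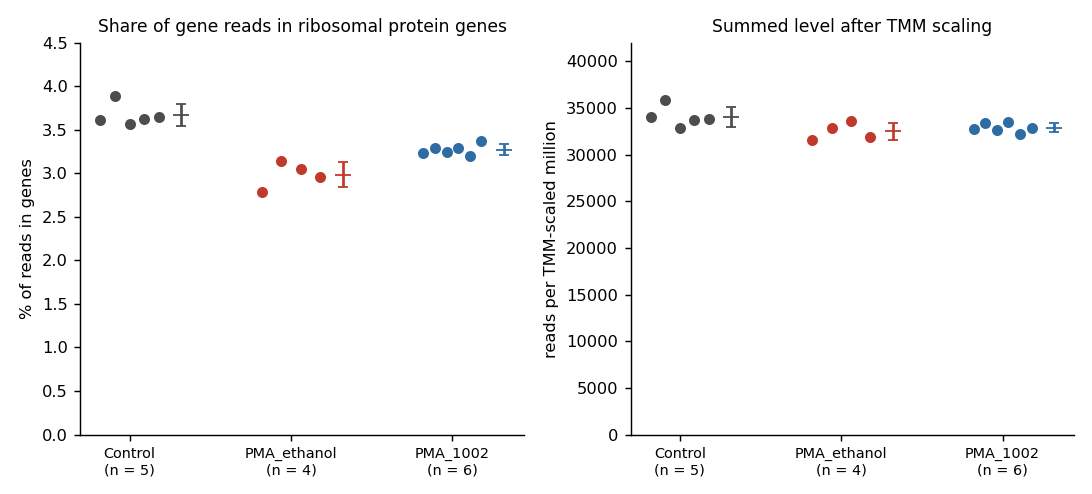
Share of gene reads in the 86 ribosomal protein genes (left, percent of reads in genes) and their summed level after TMM scaling (right, CPM) in each library of Control, PMA_ethanol and PMA_1002; points are libraries, and the bars beside them are mean ± SD. The shares fall into 3 separate ranges, with Control highest, while the scaled levels overlap.

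PMA_ethanol against Control asked how these mRNAs differed with PMA and ethanol together. Changes in the family were smaller than over the transcriptome with each of 4 scalings of the libraries, whereas the number and direction of the calls depended on the scaling. With TMM scaling, to which values refer unless another is named, calls went in both directions. Of the 84 genes that passed the filter on low counts, 14 rose (16.7%) and 16 fell (19.0%) at an adjusted p under 0.05, where 32.5% of all 14991 genes tested were called higher and 35.9% lower. In all 35.7% of the family were called with TMM scaling, against 68.4% of all genes. The median log2 fold change was -0.04 for the family and -0.07 for all genes. Its middle values, from the lower to the upper quartile, ran from -0.15 to 0.11, against -0.65 to 0.53 for all genes. A change of less than 0.5 on the log2 scale was seen in 76 of the 84 genes and in 43.3% of all genes, and in 73 and 40.0% with upper-quartile scaling. Groups did not overlap for 11 genes that were higher and 14 that were lower in PMA_ethanol, beside 28.2% and 29.6% of all genes. All tests named below are edgeR quasi-likelihood tests, two-sided, with Benjamini-Hochberg adjustment over the 14991 genes, and the 3 comparisons share their libraries.

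**Figure D2:**
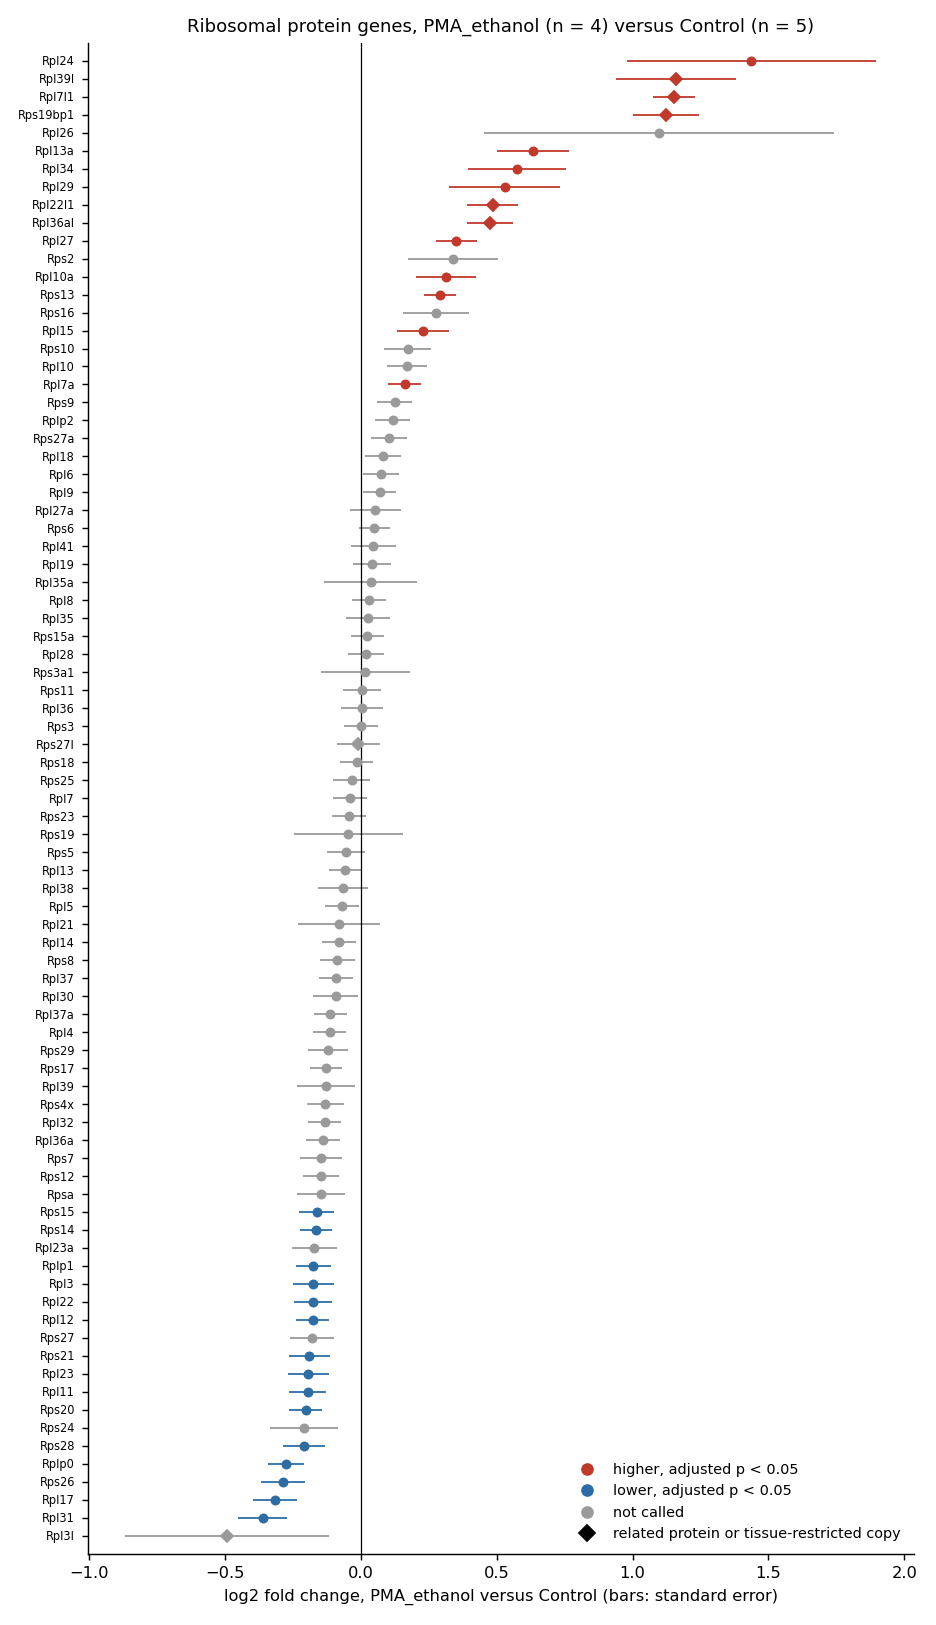
Log2 fold change of 83 of the 84 tested ribosomal protein genes in PMA_ethanol (n = 4) against Control (n = 5), with standard errors as bars; red marks genes called higher, blue genes called lower and grey genes not called, and diamonds are related genes. Most genes lie within 0.5 of 0, and 5 of the 7 related genes lie at the upper end.

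The number of genes called, and the share called lower, rested on how the libraries were scaled. With upper-quartile scaling 7 rose and 55 fell, and with total-count scaling 7 rose and 53 fell, while relative log expression (RLE) scaling gave 19 and 6. The 19 and 6 were 22.6% and 7.14% of the family, against 34.1% and 34.0% of all genes with RLE scaling. In all 73.8% of the family and 73.0% of all genes were called with upper-quartile scaling, and 65.5% and 48.4% were called lower. With total-count scaling 71.4% and 72.4% were called, and 63.1% and 47.8% called lower. The family was therefore called about as often as all genes with these 2 scalings, and lower in a larger share. Upper-quartile and total-count scaling moved the median log2 fold change of all genes by -0.24 and -0.23 from its TMM value, and that of the family to -0.28 and -0.27. Of all genes called, 47.5% were higher with TMM, 33.6% with upper-quartile, 34.0% with total-count and 50.1% with RLE scaling. The family's median stayed 0.02 to 0.03 above that of all genes with each of the 4 scalings. With every scaling, 7 genes were called higher (Rpl7l1, Rps19bp1, Rpl36al, Rpl39l, Rpl22l1, Rpl13a and Rpl24) and 6 lower (among them Rpl31, Rpl17, Rps26, Rplp0 and Rps20), where 24.5% and 34% of all genes were. Leaving out the 6 libraries rich in hair follicle markers, 11 genes were called higher and 4 lower, and no share of all genes is given for this fit. The count of genes called lower fell from 16 to 8 without PMA_ethanol library 1, to 9 without PMA_1002 library 1 or 6, and to 10 without Control library 1 or 5 or PMA_ethanol library 4.

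**Figure D3:**
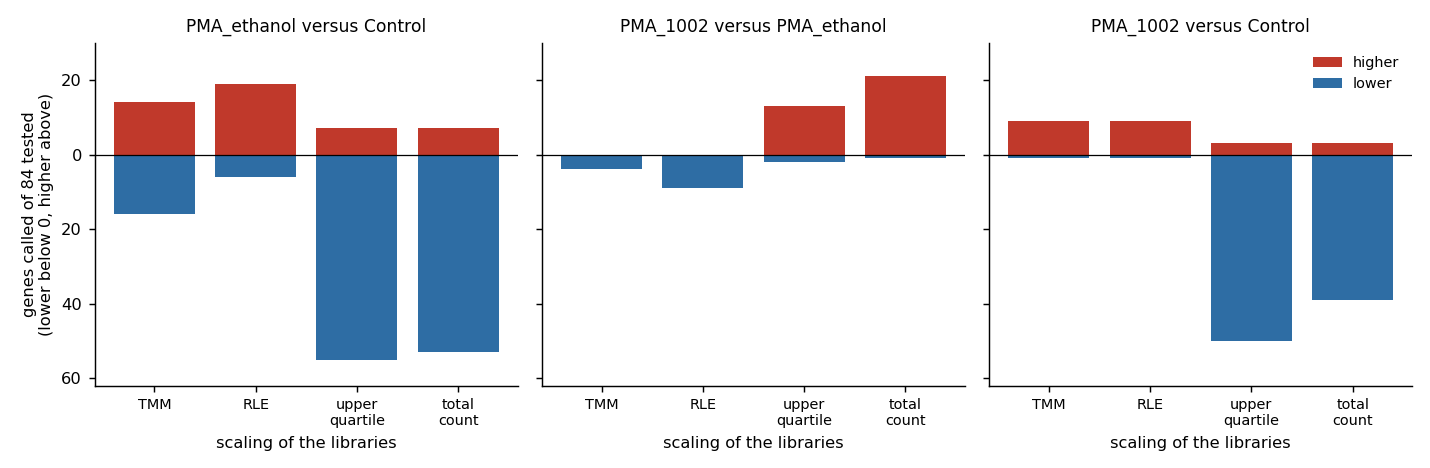
Ribosomal protein genes called higher (above 0, red) and lower (below 0, blue) of 84 tested, at an edgeR adjusted p under 0.05, in the 3 comparisons with 4 ways of scaling the libraries. In PMA_ethanol against Control the genes called lower number 16 with TMM and 55 with upper-quartile scaling.

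Most related genes rose, and the core genes they are named after were not called higher. Of the 7 related genes tested 5 were called higher (71.4%) and 0 lower, with 0 lower also at an unadjusted p under 0.05 and by DESeq2. Their median log2 fold change was 0.49. Of the 77 core genes 9 were called higher (11.7%) and 16 lower (20.8%), with a median of -0.05. Of all genes tested 32.5% were called higher and 35.9% lower. Rpl7l1 (ENSMUSG00000063888, chromosome 17, 46773907 to 46782672 on GRCm38) encodes a nucleolar relative of Rpl7 known from assembly of the large subunit. It measured 51.2, 56.7, 61.2, 58.1 and 60.2 CPM in Control libraries 1 to 5 and 123, 126, 145 and 119 CPM in PMA_ethanol libraries 1 to 4. Every PMA_ethanol library lay above every Control library, and the level rose from 57.5 ± 3.93 to 128 ± 11.7 CPM (SD, n = 5 and 4; log2 fold change 1.15, SE 0.08, edgeR adjusted p = 9.31e-10). Rpl7, a core protein of the large subunit, went from 719 ± 21.1 to 699.6 ± 38.8 CPM (log2 fold change -0.04, SE 0.06, edgeR adjusted p = 0.601), with overlapping groups. With upper-quartile scaling Rpl7 was called lower, at -0.28, and Rpl7l1 still higher, at 0.91. The difference within a pair was not itself tested.

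Rps19bp1 (ENSMUSG00000051518, chromosome 15, 80260615 to 80264315) encodes a small nucleolar protein that binds Rps19 and is also known as a regulator of the deacetylase Sirt1. Its level was 10.9, 12.7, 12.3, 10.8 and 8.02 CPM in Control and 22.4, 25.4, 24.4 and 23.5 CPM in PMA_ethanol. Again the groups did not overlap, and the difference was 2.18-fold (log2 fold change 1.12, SE 0.12, edgeR adjusted p = 3.32e-07). Rps19, the small-subunit protein most often mutated in Diamond-Blackfan anaemia, varied from library to library, with 314, 379, 191, 361 and 229 CPM in Control and 319, 192, 281 and 350.4 CPM in PMA_ethanol, and was not called (log2 fold change -0.05, SE 0.20, edgeR adjusted p = 0.854).

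In the paralogue pairs only the paralogue was called higher for Rpl22l1, Rpl36al and Rpl39l. Rpl22l1 (ENSMUSG00000039221, chromosome 3, 28805436 to 28807424) rose from 47.9, 50.9, 53.7, 55.2 and 61.8 CPM in Control to 79.5, 63.3, 86.1 and 75.3 CPM in PMA_ethanol (log2 fold change 0.49, SE 0.09, edgeR adjusted p = 0.000199). Rpl22, a large-subunit protein needed for T cell development, measured 307, 289, 277, 275 and 303 CPM in Control and 249.6, 263, 268 and 248 CPM in PMA_ethanol and was called lower (log2 fold change -0.18, SE 0.07, edgeR adjusted p = 0.0323). Each gene's groups were apart, and the call of Rpl22, unlike that of Rpl22l1, was lost in 13 of 24 alternatives, among them RLE scaling and DESeq2.

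Rpl36al (ENSMUSG00000049751, chromosome 12, 69182731 to 69184083), an intron-poor copy of Rpl36a, went from 38.4, 42.96, 43.1, 40.1 and 45.8 CPM to 55.2, 64.4, 60.8 and 54.1 CPM (log2 fold change 0.48, SE 0.08, edgeR adjusted p = 8.47e-05). Rpl36a went from 211 ± 9.82 to 192 ± 11.3 CPM and was not called (log2 fold change -0.14, SE 0.06, edgeR adjusted p = 0.0559). Rpl39l (ENSMUSG00000039209, chromosome 16, 10170226 to 10174911), a paralogue of the exit-tunnel protein Rpl39 best known from the testis, was read at a low level, 1.73, 1.89, 2.001, 1.69 and 2.62 CPM in Control and 3.06, 4.63, 5.79 and 4.85 CPM in PMA_ethanol. Its groups did not overlap either (log2 fold change 1.16, SE 0.22, edgeR adjusted p = 0.000171), while Rpl39 stood at 267 ± 39.9 and 244 ± 22.9 CPM (log2 fold change -0.13, SE 0.11, edgeR adjusted p = 0.297).

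Not every related gene rose. Rps27l (ENSMUSG00000036781, chromosome 9, 66946086 to 66949516), a paralogue of Rps27 and a target of Trp53, measured 54.1, 50.7, 54.4, 56.9 and 64.1 CPM in Control and 55.4, 55.1, 58.3 and 54.4 CPM in PMA_ethanol, with overlapping groups (log2 fold change -0.01, SE 0.08, edgeR adjusted p = 0.926), and was called lower with upper-quartile scaling, at -0.25. Rps27 measured 575 ± 37.5 and 508 ± 24.2 CPM (log2 fold change -0.18, SE 0.08, edgeR adjusted p = 0.0589), but only 1.6% of the 100-base words of its transcript occur nowhere else in the annotated transcripts, so its count is uncertain. Rpl3l, the striated-muscle form of Rpl3, is described with the muscle markers below. The germ-line retrogene Rpl10l had 0 reads among 142956068 gene reads, which allows up to 0.0210 CPM over all libraries, and the retrogene Rps27rt had 24 reads in 9 libraries, so neither was tested.

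**Figure D4:**
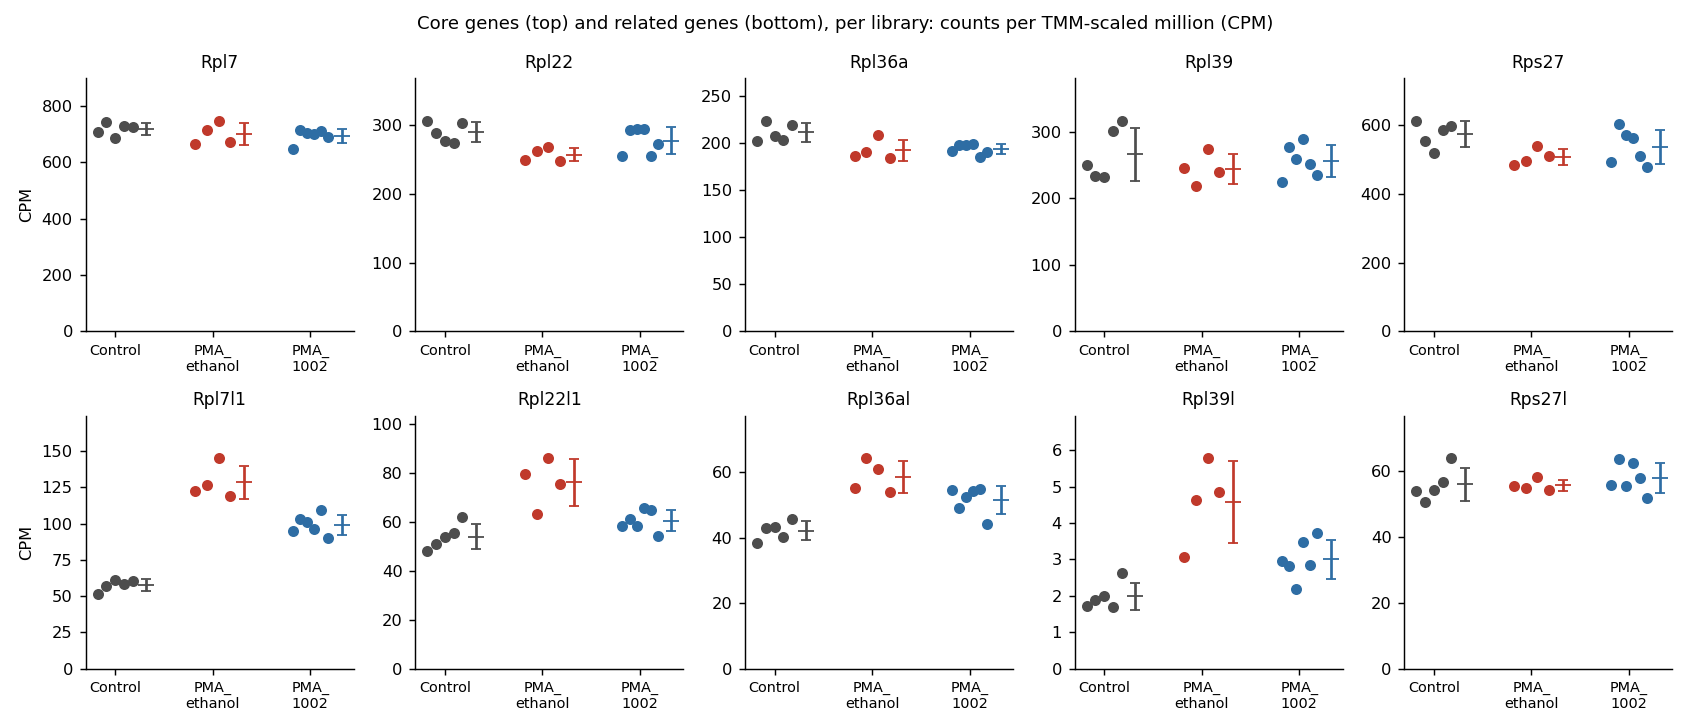
CPM per library of 5 core genes (top) and of the related genes named after them (bottom) in Control, PMA_ethanol and PMA_1002; each axis starts at 0, points are libraries, and the bars are mean ± SD. Rpl7l1 lies between 51.2 and 61.2 CPM in Control, 119 and 145 in PMA_ethanol and 90.3 and 109 in PMA_1002, while Rpl7 overlaps in all 3 groups.

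Among the core genes that rose, Rpl13a was called with each scaling and in each alternative. Rpl13a (ENSMUSG00000074129, chromosome 7, 45125558 to 45128761) encodes a large-subunit protein that can leave the ribosome and silence inflammatory mRNAs in macrophages. It measured 23.2, 14.3, 16.01, 18.9 and 20.9 CPM in Control and 29.97, 25.4, 31.04 and 29.7 CPM in PMA_ethanol. The groups did not overlap, and the mean rose from 18.7 ± 3.61 to 29.03 ± 2.47 CPM (log2 fold change 0.63, SE 0.13, edgeR adjusted p = 0.000415). Over all libraries Rpl13a stood at 23.4 CPM per kilobase of transcript, far below the core median of 488. Only 44.8% of the 100-base words of its transcript are its own, so part of its reads may not have been counted. Rps13, a small-subunit protein, measured 288, 304, 294, 287 and 296 CPM in Control and 352, 351, 384 and 353 CPM in PMA_ethanol, again without overlap (log2 fold change 0.29, SE 0.06, edgeR adjusted p = 0.00029). Its log2 fold change was 0.05 with upper-quartile scaling and the call was lost.

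Rpl27, a large-subunit protein, and Rpl34 also had separate groups. Rpl27 measured 98.8, 126, 113, 105 and 113 CPM in Control and 149, 146, 133 and 139 CPM in PMA_ethanol (log2 fold change 0.35, SE 0.08, edgeR adjusted p = 0.000563). Rpl34 went from 52.99 ± 13.996 to 78.8 ± 6.38 CPM (log2 fold change 0.57, SE 0.18, edgeR adjusted p = 0.00984), and neither gene was called with upper-quartile scaling. The other core genes called higher were Rpl7a, Rpl15, Rpl10a, Rpl29 and Rpl24, with log2 fold changes of 0.16, 0.23, 0.31, 0.53 and 1.44, of which Rpl7a and Rpl15 turned to -0.08 and -0.01 with upper-quartile scaling. Rpl24, which joins the large subunit late in its assembly, had the highest value but was close to undetected, at 0.173, 1.03, 0.960, 0.615 and 0.164 CPM in Control and 1.97, 1.14, 2.90 and 1.71 CPM in PMA_ethanol (log2 fold change 1.44, SE 0.46, edgeR adjusted p = 0.0103). Only 19.9% of the 100-base words of its transcript are its own.

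With TMM scaling the core genes that fell did so by less than 0.4 on the log2 scale. Rplp0 (ENSMUSG00000067274, chromosome 5, 115559467 to 115563727) encodes the base of the stalk on which Rplp1 and Rplp2 recruit translation factors. It measured 1669, 1766, 1682, 1697 and 1644 CPM in Control and 1426, 1450.4, 1366 and 1352 CPM in PMA_ethanol. All PMA_ethanol libraries lay below all Control libraries (log2 fold change -0.27, SE 0.07, edgeR adjusted p = 0.00152). Rplp1 went from 922 ± 58.7 to 817 ± 31.004 CPM (log2 fold change -0.17, SE 0.07, edgeR adjusted p = 0.0264) and Rplp2 from 358 ± 16.3 to 389 ± 13.1 CPM (log2 fold change 0.12, SE 0.06, edgeR adjusted p = 0.11). Of the 3 stalk genes Rplp2 therefore was not called, and the call of Rplp1, unlike that of Rplp0, was lost with RLE scaling.

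Rpl31 and Rpl17 encode proteins beside the exit of the peptide tunnel. Rpl31 (ENSMUSG00000073702, chromosome 1, 39367842 to 39371911) measured 424, 376, 342, 401 and 401 CPM in Control and 267, 322, 314 and 309 CPM in PMA_ethanol. Rpl17 measured 729, 641, 611, 679 and 662 CPM in Control and 540.2, 542, 528 and 526 CPM in PMA_ethanol. Both were apart between the groups, and Rpl31 had the lowest log2 fold change of the core genes, -0.36 (edgeR adjusted p = 0.00194, SE 0.09), beside -0.31 (edgeR adjusted p = 0.00216, SE 0.08) for Rpl17.

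Rpl5 and Rpl11, which with a small ribosomal RNA form the particle that binds Mdm2 and so stabilises Trp53, were not both called. Rpl11 measured 528, 537, 487, 525 and 538 CPM in Control and 447, 470.3, 466 and 444 CPM in PMA_ethanol, without overlap (log2 fold change -0.19, SE 0.07, edgeR adjusted p = 0.0167), but the call was lost with RLE scaling. Rpl5 stood at 412 ± 19.97 and 393 ± 15.996 CPM (log2 fold change -0.07, SE 0.06, edgeR adjusted p = 0.345). Rpl3, which lies near the site of peptide bond formation, was called at the edge of the threshold (log2 fold change -0.17, SE 0.08, edgeR adjusted p = 0.0493) and lost the call in 19 of 24 alternatives. Rpl10, a protein added last to the large subunit, was not called (log2 fold change 0.17, SE 0.07, edgeR adjusted p = 0.0517).

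In the small subunit 6 of 31 core genes were called lower (19.4%, against 35.9% of all genes) and 1, Rps13, higher (3.23%, against 32.5%). The lower ones were Rps26, Rps28, Rps20, Rps21, Rps14 and Rps15, with log2 fold changes of -0.29, -0.21, -0.20, -0.19, -0.16 and -0.16. Rps26, which contacts mRNA where it leaves the subunit, measured 498, 436, 414, 444 and 453 CPM in Control and 368, 382, 385 and 338 CPM in PMA_ethanol (log2 fold change -0.29, SE 0.08, edgeR adjusted p = 0.00433). The groups did not overlap. Rps14, lost in one form of myelodysplastic syndrome, went from 573 ± 18.2 to 511 ± 20.5 CPM (log2 fold change -0.16, SE 0.06, edgeR adjusted p = 0.0219).

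Other small-subunit genes of the fixed panel were not called. Rps6, the substrate of the S6 kinases, measured 297, 321, 297, 285 and 291 CPM in Control and 301, 314, 316 and 306 CPM in PMA_ethanol, which overlapped (log2 fold change 0.05, SE 0.06, edgeR adjusted p = 0.457), and Rps3, at the mRNA entry channel, had a log2 fold change of 0.00 (edgeR adjusted p = 0.984, SE 0.06). Both turned negative with upper-quartile scaling, at -0.19 and -0.24, and with total-count scaling, at -0.18 and -0.23. Rpsa, also known as a laminin receptor, the X-linked Rps4x and Rps27a, which is made as a fusion with ubiquitin, had log2 fold changes of -0.15 (edgeR adjusted p = 0.151, SE 0.09), -0.13 (edgeR adjusted p = 0.101, SE 0.07) and 0.10 (edgeR adjusted p = 0.173, SE 0.07).

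Setting each gene against the summed reads of the family takes no scaling from the rest of the transcriptome. The sum is itself a scaling, with a median log2 fold change of 0.03 over the family, against -0.04 with TMM scaling. On this measure 21 genes were higher and 5 lower in PMA_ethanol than in Control, where 34.8% and 32.5% of all genes were. The 5 lower included Rpl31, Rpl17, Rps26 and Rplp0, at -0.29 (edgeR adjusted p = 0.00664, SE 0.09) for Rpl31 and -0.21 (edgeR adjusted p = 0.0176, SE 0.07) for Rplp0. Of the 21 the smallest adjusted p-values belonged to Rpl7l1 at 1.22 (edgeR adjusted p = 7.74e-10, SE 0.08), Rps19bp1 at 1.19 (edgeR adjusted p = 1.3e-07, SE 0.12) and Rpl36al at 0.54 (edgeR adjusted p = 2.61e-05, SE 0.09). Once the 6 libraries rich in hair follicle markers were left out, 12 were higher and 0 lower.

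PMA_1002 against PMA_ethanol asked what the peptide changed in the inflamed ear. Rpl7l1, Rpl22l1, Rpl39l and Rps13, all called higher in PMA_ethanol than in Control, were lower in PMA_1002 than in PMA_ethanol. They were 4 of 84 (4.76%), and 0 were called higher, also 0 at an unadjusted p under 0.05 in edgeR and 0 in DESeq2. Both this comparison and PMA_ethanol against Control use the PMA_ethanol libraries, so that high values there favour both calls for a gene. Of all genes 17% were called higher and 18% lower, 35% in all. The median log2 fold change was 0.01 for the family and 0.03 for all genes, and 83 of 84 changed by less than 0.5 against 73.6% of all genes. Groups did not overlap for 3 genes that were higher and 4 that were lower, beside 11% and 13% of all genes.

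Rpl7l1 ran from 90.3 to 109 CPM with a median of 98.6 in PMA_1002, between the ranges of the other groups and apart from both (log2 fold change -0.37, SE 0.07, edgeR adjusted p = 0.000933 against PMA_ethanol). It was the 1 gene of the family called lower with each of the 4 scalings, as 12.6% of all genes were, and in each alternative. Rps13 ran from 305 to 335 CPM with a median of 326, below every PMA_ethanol library (log2 fold change -0.15, SE 0.06, edgeR adjusted p = 0.043). Its call was lost with upper-quartile and total-count scaling.

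Rpl22l1 ran from 54.1 to 65.6 CPM with a median of 59.8 in PMA_1002, and PMA_ethanol library 2 at 63.3 CPM lay within this range (log2 fold change -0.32, SE 0.09, edgeR adjusted p = 0.0104). Rpl39l ran from 2.19 to 3.72 CPM with a median of 2.90, with PMA_ethanol library 1 at 3.06 CPM inside (log2 fold change -0.57, SE 0.20, edgeR adjusted p = 0.0358). The Rpl39l call was lost in 13 of 24 alternatives, and that of Rpl22l1 with total-count scaling. Rps19bp1 ran from 16.6 to 21.3 CPM with a median of 20.2, below every PMA_ethanol library, but was not called (log2 fold change -0.27, SE 0.11, edgeR adjusted p = 0.07), and Rpl36al ran from 44.1 to 54.8 CPM with a median of 53.3 and was not called either (log2 fold change -0.19, SE 0.08, edgeR adjusted p = 0.0853).

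With TMM scaling none of the 16 genes that fell in PMA_ethanol against Control was called between PMA_1002 and PMA_ethanol. Rplp0 ran from 1430.4 to 1659 CPM with a median of 1542 (log2 fold change 0.13, SE 0.06, edgeR adjusted p = 0.121) and Rpl31 from 299 to 376 CPM with a median of 346 (log2 fold change 0.17, SE 0.09, edgeR adjusted p = 0.142). Upper-quartile scaling called 13 genes of the family higher (15.5%, against 22.9% of all genes), among them Rplp0, Rpl31 and Rpl17. It called 2 lower (2.38%, against 14.1%). With total-count scaling 21 were higher (25%, against 26.2% of all genes) and 1 lower (1.19%, against 12.6%). RLE scaling gave 0 and 9 (10.7%), where 14.4% of all genes were higher and 20.2% lower. DESeq2 gave 0 and 12, for which no share of all genes is given. Total-count scaling moved the median of all genes by 0.11 on the log2 scale, and of all genes called 48.7% were higher with TMM, 61.8% with upper-quartile, 67.4% with total-count and 41.7% with RLE scaling. The 4 genes lower by TMM scaling became 2 without PMA_ethanol library 2 or 3 and without PMA_1002 library 2, 3 or 5. Relative to the family's total, the same 4 genes were lower and 0 higher (0 at an unadjusted p), beside 18.5% and 15.1% of all genes. These 4 became 2 without PMA_ethanol library 3 or PMA_1002 library 3.

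PMA_1002 against Control asked what remained changed under the peptide. Here 9 of 84 genes were higher (10.7%) and 1 lower (1.19%), where 28.4% and 26.7% of all genes were, 55% in all. The higher ones were Rpl7l1, Rps19bp1, Rpl39l, Rpl36al, Rpl13a, Rpl27, Rps13, Rpl24 and Rpl26. The family's median log2 fold change was -0.04 and that of all genes -0.03. Rpl7l1 stood at 99.1 ± 6.76 CPM (SD, n = 6) against 57.5 ± 3.93 in Control (log2 fold change 0.79, SE 0.07, edgeR adjusted p = 1.06e-07), and Rps19bp1 at 19.8 ± 1.84 against 10.9 ± 1.85 CPM (log2 fold change 0.85, SE 0.11, edgeR adjusted p = 7.63e-06). Rpl13a stood at 26.2 ± 3.02 CPM (log2 fold change 0.50, SE 0.12, edgeR adjusted p = 0.00218), and library 6 of PMA_1002, at 21.6 CPM, lay within the Control range.

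Those 3 genes were called higher with each scaling, as 20.5% of all genes were. Rpl36al had a log2 fold change of 0.29 (edgeR adjusted p = 0.00391, SE 0.08) and Rpl39l of 0.59 (edgeR adjusted p = 0.0226, SE 0.21), and neither was called with upper-quartile or total-count scaling. Rpl22l1 was not called here (log2 fold change 0.17, SE 0.09, edgeR adjusted p = 0.11). Rps14 was lower, at 517 ± 15.2 against 573 ± 18.2 CPM without overlap (log2 fold change -0.15, SE 0.05, edgeR adjusted p = 0.027). Its call held with each scaling (26.6% of all genes were called lower so) but was lost in 7 of 24 alternatives, among them those without Control library 5, PMA_1002 library 1 or 5 or the 6 libraries rich in hair follicle markers. With upper-quartile scaling 3 genes were higher and 50 lower, and with total-count scaling 3 and 39, as these scalings moved the median of all genes by -0.16 and -0.12. The genes called lower were then 59.5% of the family and 38.8% of all genes with upper-quartile scaling, and 46.4% and 35.2% with total-count scaling, the reverse of the contrast with TMM. Rps13, called higher with TMM, stood at -0.02 with upper-quartile scaling. Of all genes called 51.5% were higher with TMM, 34.6% with upper-quartile and 38.7% with total-count scaling. Genes called higher fell to 5 without Control library 4, and genes called lower became 5 without Control library 3 and 2 without PMA_ethanol library 1 or PMA_1002 library 2 or 3. Relative to the family's total 10 genes were higher, Rpl10a joining the 9, and 0 lower (0 at an unadjusted p), beside 30.6% and 23.3% of all genes.

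Within a group these genes varied less between libraries, by their median, than all genes tested. The median within-group SD of log2 CPM was 0.0922 over the 84 genes, against 0.211 over all genes tested. It was 0.140 over the 4115 genes between the 10th and 90th percentile of the family in mean log2 CPM. Genes inside this window were not matched in level, and among the 77 core genes the SD had a Spearman rho of -0.55 with mean CPM. The SD of a gene is the within-group value. The within-group SD exceeded 0.3 in 6 genes of the family, Rpl26, Rpl24, Rpl3l, Rps19, Rpl29 and Rpl34. Rpl26, whose protein binds the mRNA of Trp53, measured 30.6, 42.1, 40.5, 19.7 and 26.3 CPM in Control and 30.1, 38.4, 33.1 and 170.2 CPM in PMA_ethanol. In PMA_1002 it measured 34.1, 98.2, 154, 84.1, 29.8 and 175 CPM. It was high in PMA_ethanol library 4 and in PMA_1002 libraries 2, 3, 4 and 6 and near the Control level elsewhere. Its call in PMA_1002 against Control (log2 fold change 1.57, SE 0.60, edgeR adjusted p = 0.0411) was lost in 15 of 24 alternatives.

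Rpl3l moved with the muscle markers of the libraries. It measured 20.1, 26.6, 9.20, 20.3 and 16.9 CPM in Control, 14.5, 4.81, 16.1 and 18.98 CPM in PMA_ethanol and 9.96, 16.6, 18.9, 13.6, 13.5 and 22.5 CPM in PMA_1002. The 10 skeletal muscle markers summed to between 812 CPM in PMA_ethanol library 2, where Rpl3l was lowest, and 3893 in Control library 2, where it was highest. Over the 15 libraries the log2 levels had a Pearson r of 0.949 (permutation p = 1e-05, the smallest that the permutations can give) and a Spearman rho of 0.854 (permutation p = 0.00016). This was the 1 relation tested, and r was 0.862 without the 2 libraries farthest from the median muscle level. Rpl3l was not called between groups (log2 fold change -0.49, SE 0.37, edgeR adjusted p = 0.258 for PMA_ethanol against Control).

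Some of the genes that fell differed inside the PMA_1002 group. Rpl17 measured 554, 641, 645, 642, 516 and 568 CPM in PMA_1002 libraries 1 to 6. Libraries 2, 3 and 4 lay within the Control range and libraries 1, 5 and 6 below it. The same split was seen for Rpl11, at 459, 525, 524, 520, 466 and 466 CPM. Rpl22 shared it, at 255, 294, 294, 295, 255 and 273 CPM. The PMA_1002 means of such genes pool unlike libraries, and the source of the split was not tested. Rplp0 did not follow it, at 1659, 1464, 1430.4, 1549, 1563 and 1534 CPM in libraries 1 to 6. Reads that aligned at several positions, which were not counted, made up 16.9, 18.8, 18.01, 18.5, 17.4 and 16.9% of the reads in these libraries. They made up 15.98 to 17.9% in Control and 18.6 to 20.1% in PMA_ethanol, and their part in the differences was not tested. Reads in the family's pseudogenes were 0.00796 to 0.0383% of gene reads.

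Levels per kilobase of transcript let genes be compared with each other. The core genes ran from 1.81 CPM per kilobase (Rpl24) to 1762 (Rplp1), with a median of 488 over all libraries. Rplp1, Rps12, Rps27, Rpl32 and Rplp0 were highest, at 1762, 1599, 1569, 1197 and 1141 CPM per kilobase. Rpl24, Rpl29 and Rpl13a were lowest, at 1.81, 21.03 and 23.4. The related genes Rpl7l1, Rps19bp1 and Rpl39l stood at 35.7, 21.4 and 3.83. Many of these genes have copies that share their sequence, and reads in shared stretches may not have been counted. The share of 100-base words found in no other annotated transcript had a median of 58.6% in the core genes and was under 50% in 33 of 77. Across these genes, which are not independent, that share had a Spearman rho of 0.13 with the level per kilobase and -0.10 with the within-group SD. It was 98.3% for Rpl7l1, 100% for Rps19bp1 and Rpl39l, 49.2% for Rpl22l1, 41% for Rpl36al, 81.7% for Rplp0 and 47.5% for Rpl31. Lower shares were found for Rpl17 (22.9%), Rps13 (22.4%), Rpl3 (20.6%), Rpl36a and Rps6 (16.4% each) and Rpl5 (8.9%), so their counts are less certain.

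Genes that serve the ribosome were counted beside the family in PMA_ethanol against Control, where 32.5% of all genes were higher and 35.9% lower. With upper-quartile scaling those shares of all genes were 24.6% and 48.4%. Of 37 initiation factors 30 rose (81.1%) and 2 fell (5.41%), with a median log2 fold change of 0.60, and with upper-quartile scaling 24 rose and 5 fell. Eif4a1, the helicase that opens mRNA leaders, rose from 395 ± 29.01 to 1044 ± 55.4 CPM (log2 fold change 1.40, SE 0.09, edgeR adjusted p = 3.74e-10). Eif6, which keeps new large subunits from joining small ones, rose from 99.9 ± 11.4 to 264 ± 31.3 CPM (log2 fold change 1.40, SE 0.09, edgeR adjusted p = 9.49e-10). Eif4b, a partner of the helicase, fell by 0.36 on the log2 scale (SE 0.07, edgeR adjusted p = 0.000178).

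Of 15 chaperones, importers and Mdm2-pathway genes for ribosomal proteins 13 rose (86.7%) and 1, Mdm4, fell, with a median of 0.86, and 11 rose and 2 fell with upper-quartile scaling. Grwd1, which binds Rpl11, rose from 13.9 ± 1.65 to 71.04 ± 4.92 CPM (log2 fold change 2.35, SE 0.11, edgeR adjusted p = 7.81e-12). Cdkn1a, a cell-cycle inhibitor induced by Trp53, rose by 1.94 (edgeR adjusted p = 2.86e-10, SE 0.12) and Mdm2 by 0.89 (edgeR adjusted p = 1.13e-08, SE 0.07). Of 12 genes of ribosome rescue and storage 11 rose (91.7%) and 1, Habp4, fell, and 9 rose and 1 fell with upper-quartile scaling. Abce1, which splits ribosomes for reuse, rose from 97.2 ± 12.9 to 244 ± 37.1 CPM (log2 fold change 1.32, SE 0.13, edgeR adjusted p = 7.07e-08).

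With TMM scaling most genes of a list of 14 other mRNAs known to start with a TOP tract rose. The list leaves out Eef2 and Eif4b, which fell and were counted among the elongation and initiation factors. Of the 14 genes 10 rose (71.4%) and 1 fell, with a median of 0.50, and 7 rose and 2 fell with upper-quartile scaling. Pabpc1, which binds polyA tails, rose from 679 ± 43.8 to 1964 ± 303 CPM (log2 fold change 1.53, SE 0.12, edgeR adjusted p = 8.96e-09), and Cox7a2l fell by 0.80 (SE 0.08, edgeR adjusted p = 1.83e-07). Tpt1, one of the most abundant of them, had a log2 fold change of -0.04 (edgeR adjusted p = 0.646, SE 0.07). Of 10 elongation factors 4 rose and 2 fell, with a median of 0.00 that became -0.23 with upper-quartile scaling. Eif5a, which helps ribosomes past slow peptide bonds, rose from 412 ± 26.5 to 1101 ± 83.6 CPM (log2 fold change 1.42, SE 0.08, edgeR adjusted p = 1.72e-10), and Eef1d, part of the exchange factor of elongation, from 101 ± 5.53 to 155 ± 10.5 CPM (log2 fold change 0.62, SE 0.07, edgeR adjusted p = 3.31e-07). Eef2, which moves the ribosome along, fell from 2767 ± 196 to 1958 ± 62.1 CPM (log2 fold change -0.50, SE 0.09, edgeR adjusted p = 8.43e-05), and Eef2k, the kinase that inhibits it, fell from 139 ± 7.93 to 29.5 ± 3.49 CPM (log2 fold change -2.23, SE 0.09, edgeR adjusted p = 2.79e-12).

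In the mTORC1 list 9 of 18 rose and 8 fell, with a median of 0.14 that turned to -0.09 with upper-quartile scaling. Larp1, which binds TOP tracts, rose from 216 ± 14.7 to 420.1 ± 24.1 CPM (log2 fold change 0.96, SE 0.08, edgeR adjusted p = 1.83e-08). Sesn1 and Sesn2, which restrain mTORC1, went in opposite directions, by -2.80 (edgeR adjusted p = 1.11e-09, SE 0.19) and 1.96 (edgeR adjusted p = 4.78e-09, SE 0.15). Of 77 mitochondrial ribosomal protein genes 31 rose (40.3%, near the share of all genes) and 5 fell (6.49%), with a median of 0.13 that turned to -0.11 with upper-quartile scaling, where 16 rose and 24 fell. Fau, which encodes a small-subunit protein fused to a ubiquitin-like protein and is named outside the Rps pattern, had a log2 fold change of 0.24 (edgeR adjusted p = 0.122, SE 0.13).

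In PMA_1002 against PMA_ethanol, where 17% of all genes were higher and 18% lower, 0 of 37 initiation factors were higher (0 at an unadjusted p, 0 in DESeq2) and 12 lower (32.4%). The initiation factors called lower were 17 with RLE, 8 with upper-quartile and 6 with total-count scaling. With these scalings 20.2%, 14.1% and 12.6% of all genes were called lower. Of the chaperone and Mdm2 list 0 of 15 were higher (0 at an unadjusted p, 0 in DESeq2) and 5 lower (33.3%), which became 6, 4 and 4 with the same scalings. Mdm2 differed by -0.53 (edgeR adjusted p = 1.66e-05, SE 0.07) and Cdkn1a by -0.93 (edgeR adjusted p = 6.86e-06, SE 0.11). Of 18 genes of the mTORC1 list 3 were higher and 3 lower (16.7% each), close to the shares of all genes. Of 77 mitochondrial ribosomal protein genes 4 were higher (5.19%) and 5 lower (6.49%). With total-count scaling 12 were higher and 4 lower, where 26.2% of all genes were higher and 12.6% lower. Of 10 elongation factors 1, Eef2k, was higher, by 1.55 (edgeR adjusted p = 8.77e-09, SE 0.09), and 3 were lower, which became 1 with upper-quartile and total-count scaling. In the TOP list 1 was higher and 4 lower, with Pabpc1 at -0.94 (edgeR adjusted p = 1.04e-05, SE 0.12), and 1 was lower with total-count scaling. In the rescue list 1, Habp4, was higher and 5 lower, which became 2 with upper-quartile and total-count scaling. The core ribosomal protein genes had 0 higher and 1 lower in this comparison.

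PMA_1002 against Control shares the Control libraries with PMA_ethanol against Control, and 28.4% of all genes were higher and 26.7% lower. The median log2 fold changes were 0.44 for the initiation factors, 0.48 for the chaperone and Mdm2 list, 0.46 for the rescue list and 0.29 for the TOP list, beside 0.60, 0.86, 0.65 and 0.50 in PMA_ethanol against Control, a difference that was not tested. Of the initiation factors 27 were higher and 2 lower, of the TOP list 9 and 1, of the rescue list 9 and 1 and of the mTORC1 list 9 and 7. Of the chaperone and Mdm2 list 12 were higher and 0 lower (0 at an unadjusted p, 0 in DESeq2), but 2 lower with upper-quartile scaling. The mitochondrial ribosomal protein genes had 34 higher and 2 lower, and 20 and 6 with upper-quartile scaling. With that scaling 20.5% of all genes were higher and 38.8% lower. Elongation factors had 4 higher and 2 lower, with a median of 0.12 that turned to -0.04 with upper-quartile scaling.

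**Figure D5:**
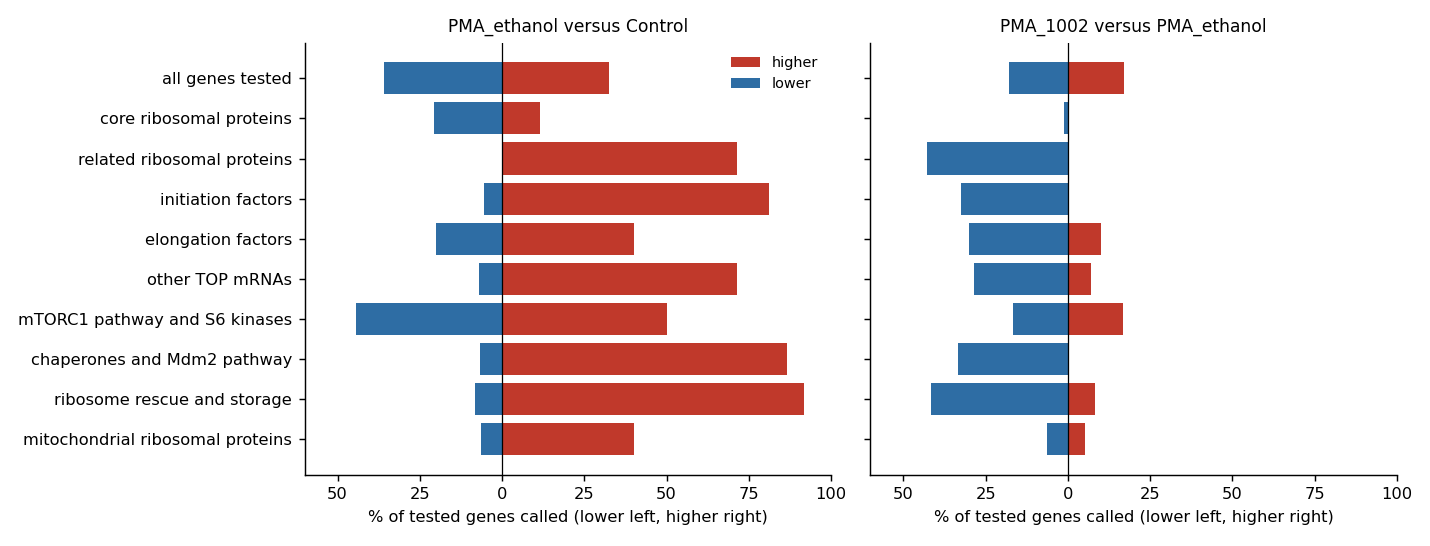
Percent of tested genes called higher (right, red) and lower (left, blue) at an edgeR adjusted p under 0.05 among all genes, core and related ribosomal protein genes and 7 lists of genes that serve translation, in PMA_ethanol against Control and in PMA_1002 against PMA_ethanol. In the first comparison 81.1% of initiation factors and 11.7% of core ribosomal protein genes are called higher.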

How the data were processed

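The deposited values were whole-number read counts per Ensembl gene, 1 table per library. Tools named in the submitters' processing notes are STAR 2.5, HTSeq, FastQC 0.11.5 and MultiQC 0.8, with the build GRCm38. For the annotation release and the strand option the sources used here give nothing, so overlapping and antisense genes are uncertain. Reads given to no gene (28.5 to 32.8% of each table) stayed out of library sizes. Symbols and positions came from GENCODE M21 on GRCm38, and transcript starts from RefSeq on GRCm38.p6. Counts were fitted in R 4.3.3 with edgeR 4.0.16 (robust quasi-likelihood test, TMM scaling, filterByExpr by group, 14991 genes, all 15 libraries, group as the only term). A gene was called at a Benjamini-Hochberg adjusted p under 0.05. A standard error (SE) was the absolute log2 fold change over the square root of F. A second fit took the summed reads of the 86 genes as library size. Members, lists and tests were chosen with earlier results of these data known. Named are a fixed panel, the called genes of smallest adjusted p and largest change, and up to 2 genes per list and direction. Rps4l, in the panel, is a pseudogene in this annotation and was left out. A few genes that the rule names are counted but not reported here. Rpl7a, Rpl10a, Rpl15, Rpl27, Rpl29, Rpl32, Rpl34, Rps12, Rps13, Rps15, Rps20, Rps21, Rps26, Rps28, Tpt1 and Fau were named after their values were seen. Alternatives used DESeq2 1.42.0, other scalings, no filter, fewer libraries and a block on library number. Chi-square per degree of freedom between libraries of a group lay between 3.08 and 29.5, so none was counted as a repeat.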

Additional observations from a re-analysis of the deposited data

Results flagged for a closer look

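In 5 cases a library stood apart from the others of its group by the ratio of its gap to the group's range. Over 99 groups of values, chance alone gives about 4.95 such cases. The share of gene reads in ribosomal protein genes was 3.89% in Control library 2, above 3.57 to 3.65% in the other 4. Rpl11 was lowest in Control library 3, at 487 CPM against 525 to 538. Rpl26 was highest in PMA_ethanol library 4, at 170.2 CPM against 30.1 to 38.4. In PMA_1002 library 1 Rpl7 was lowest, at 647 CPM against 689 to 714, and so was Rpsa, at 654 CPM against 768 to 804.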

How the results depend on the processing

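Counts below are ribosomal protein genes of 84 tested. No share of all genes is given for the alternatives other than the scalings. Scaling, the filter on low counts and the choice of libraries moved the counts of called genes, and the cause was not tested. In PMA_ethanol against Control 14 were higher and 16 lower. The lower ones were 6 with RLE, 55 with upper-quartile and 53 with total-count scaling, 5 with no filter, 8 with only these groups in the fit and 4 without libraries of high hair follicle level. The higher ones were 7 with upper-quartile and with total-count scaling and 23 in DESeq2, and the median log2 fold change was -0.28 and -0.27 with upper-quartile and total-count scaling. Rps3 and Rps6 turned negative with those scalings, Rps3 to -0.24 and -0.23 and Rps6 to -0.19 and -0.18. Relative to the family's total the lower ones were 3 with no filter, 9 with a median-ratio factor and 0 without libraries of high hair follicle level, where the higher ones were 12.

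In PMA_1002 against PMA_ethanol 4 were lower and 0 higher. The lower ones were 9 with RLE, 2 with upper-quartile and 1 with total-count scaling, 2 with no filter and 12 in DESeq2, and 2 relative to the family's total with no filter. The higher ones were 13 and 21 with upper-quartile and total-count scaling, with medians of 0.086 and 0.12. In PMA_1002 against Control 9 were higher and 1 lower. The higher ones were 3 with either of those scalings. The lower ones were 50 and 39 with them, 0 with no filter, 11 in DESeq2, 3 with only these groups and 0 without libraries of high hair follicle level, and the medians were -0.20 and -0.16.

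The library numbers paired no samples by the labels. Over 12 same-numbered pairs the correlation of deviations ran from -0.53 to 0.58, 2 exceeded 0.1, and 2 of 12 libraries correlated best with their own number. With the replicate block, which uses libraries 1 to 4 of each group, 5 were lower in PMA_ethanol against Control, 2 lower in PMA_1002 against PMA_ethanol, and 4 higher and 0 lower in PMA_1002 against Control, where 5 were higher relative to the family's total. The same libraries with no block gave 6 lower, 2 lower and 0 lower, an alternative chosen after seeing the data, as was leaving out libraries of high hair follicle level.

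Leaving out each library in turn gave 10 to 20 higher and 8 to 19 lower in PMA_ethanol against Control (median -0.06 to -0.01), 0 higher and 2 to 4 lower in PMA_1002 against PMA_ethanol (median -0.01 to 0.02) and 5 to 9 higher and 0 to 5 lower in PMA_1002 against Control (median -0.05 to -0.01). Relative to the family's total the ranges were 18 to 22 higher and 4 to 6 lower, 0 higher and 2 to 6 lower, and 7 to 11 higher and 0 lower. The share of gene reads stayed at 3.62 to 3.70% in Control, 2.94 to 3.05% in PMA_ethanol and 3.25 to 3.29% in PMA_1002. Its mean was 2.59, 2.03 and 2.30% of all reads, and 4.0, 3.14 and 3.52% without the 10 most abundant genes. Of 27 calls on named genes 15 kept direction and call in all 24 alternatives, among them Rpl7l1 in each comparison, Rps19bp1 and Rpl13a in both comparisons with Control, and Rpl17, Rpl22l1, Rpl24, Rpl31, Rpl36al, Rpl39l and Rplp0 in PMA_ethanol against Control. Genes with few reads, such as Rpl24 and Rpl39l, are limited by depth.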
